A study of Homo sapiens with 8 samples.

Results

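NUAK1, a protein kinase of the AMPK family, had 2.56-fold higher mRNA in TGFβ1-treated A2058 melanoma cells than in vehicle-treated cells. Its closest relative NUAK2, both catalytic subunits of AMPK, SIK2, SIK3 and MARK1 to MARK4 had log2 changes from −0.11 to 0.10. The 95% intervals of these 9 included 0 and reached as far as −0.25 and 0.26. NUAK1 and these 9 are the 10 AMPK-related kinases considered here, and BRSK1, a relative outside them, rose by 0.66 on the log2 scale. The members were every probe annotated with one of the 10 symbols, 16 of the 47315 probes on the array, or 10 of 20045 genes. They were chosen from the measured log2 change of NUAK1 between these same arrays and from kinship to it, so the values of the 10 kinases in that comparison are given as a description and without a test. A2058 is an established human melanoma cell line. RNA was taken from 8 wells, 4 treated with TGFβ1 and 4 with control vehicle, and each was hybridised to an Illumina HT-12 array. The sample titles call the wells here named vehicle untreated. All 8 wells had been transfected with an empty vector, so vehicle wells are not untransfected cells. By the study's methods the treatment lasted a day in serum-free media at either of 2 doses, without a statement of which dose the arrays had, and the wells of a group shared the plating day and the passage. The spread between wells is therefore not that between independent cultures.

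AMPK is a heterotrimer that senses low cellular energy, with a catalytic α subunit and regulatory β and γ subunits. The AMPK-related kinases share the fold of its catalytic domain, and most of them are switched on when LKB1, the tumour suppressor kinase encoded by STK11, phosphorylates a threonine in their activation loop. NUAK1 and NUAK2 act on the myosin phosphatase and on cell adhesion, the salt-inducible kinases SIK2 and SIK3 on the CRTC coactivators and class IIa histone deacetylases, and the MARK kinases on microtubule-associated proteins and cell polarity.

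NUAK1 lies on chromosome 12, at chr12:106063345-106138954 on the minus strand of GRCh38.p14 in RefSeq. It was read by 2 probes of 50 bases, of which the first 30 bases are given here because both carried the rise of this gene. The longest run of bases that the full probes share is 6, so they read different stretches of the mRNA.
ILMN_1689318: gatggggagcacttttcagggtgaaattca
ILMN_2079786: ggtttgagcccagaacagcctacaggggaa

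The mean of both NUAK1 probes was −0.74, −0.51, −0.66 and −0.81 in the vehicle wells 1 to 4. In the TGFβ1 wells 1 to 4 it was 0.64, 0.84, 0.59 and 0.64. Every TGFβ1 well lay far above every vehicle well, with a gap from −0.51 in the highest vehicle well to 0.59 in the lowest TGFβ1 well. These are log2 values that the authors had centred, so that each probe averages 0 over the 8 arrays. They show differences between wells and not how abundant a transcript was. Vehicle wells averaged −0.68 ± 0.13 (SD, n = 4) and TGFβ1 wells 0.68 ± 0.11 (SD, n = 4), a log2 change of 1.36 (SE 0.08). Ordered by size from the largest rise, this was the change of rank 19 among the 20045 genes.

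**Figure D1:**
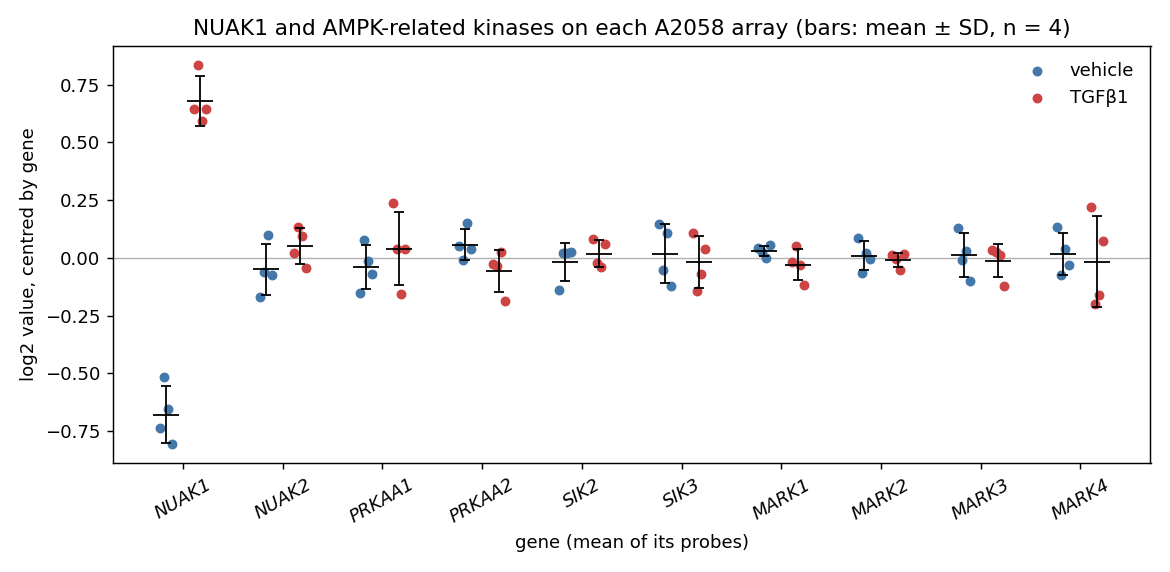
The centred log2 value (vertical axis) of each of the 10 kinases (horizontal axis) on the 4 vehicle (blue) and 4 TGFβ1 (red) arrays, with the mean ± SD of each group. NUAK1 sits between −0.81 and −0.51 under vehicle and between 0.59 and 0.84 under TGFβ1, and no value of another kinase lies outside −0.20 to 0.24.

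Both probes of NUAK1 showed the rise. Probe ILMN_1689318 stood at −0.58, −0.63, −0.49 and −0.72 under vehicle and at 0.64, 0.80, 0.39 and 0.60 under TGFβ1, a log2 change of 1.21 (SE 0.09). Probe ILMN_2079786 stood at −0.89, −0.40, −0.82 and −0.89 under vehicle and at 0.65, 0.87, 0.80 and 0.68 under TGFβ1, a log2 change of 1.5 (SE 0.10). The groups were separate on each probe. Vehicle well 2 was the highest vehicle well on the second probe and was not on the first. Over the 8 arrays the probes had a Pearson r of 0.96, which largely restates the gap between the groups that both share. Once each group mean had been taken away, r was 0.03, so well to well differences on one probe did not recur on the other.

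NUAK2, the other NUAK kinase and like NUAK1 a target of LKB1, did not follow it. Its mean of 2 probes was −0.17, −0.06, 0.10 and −0.07 in the vehicle wells and 0.02, 0.14, 0.09 and −0.04 in the TGFβ1 wells. The groups overlapped, at a log2 change of 0.10 (SE 0.07, 95% interval −0.05 to 0.25). Its probes gave 0.10 each. On each array the log2 value of NUAK1 minus that of NUAK2 was between −0.76 and −0.45 under vehicle and between 0.50 and 0.70 under TGFβ1, and the means of the groups differed by 1.26. Since the values of each gene are centred, this difference says how far the balance between both genes moved and not which of them was more abundant. It has no test, because NUAK1 had been picked for its rise.

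PRKAA1 and PRKAA2 encode the α1 and α2 catalytic subunits of AMPK. PRKAA1 was −0.15, 0.08, −0.02 and −0.07 under vehicle and 0.24, 0.04, −0.15 and 0.04 under TGFβ1, with overlapping groups and a log2 change of 0.08 (SE 0.08, interval −0.10 to 0.26). Its 2 probes differed. ILMN_1783889 was higher in 3 TGFβ1 wells, at 0.16 to 0.17, than in any vehicle well, but well 3 at −0.08 lay among the vehicle wells, and the change was 0.21 (SE 0.08). ILMN_2357577 changed by −0.05 (SE 0.10), with the highest value of all, 0.31, in TGFβ1 well 1. PRKAA2 was read by 1 probe, at 0.05, −0.01, 0.15 and 0.04 under vehicle and −0.03, −0.03, 0.02 and −0.19 under TGFβ1. Its change of −0.11 (SE 0.07, interval −0.25 to 0.03) was the lowest of the 10 kinases, and 1 TGFβ1 well overlapped with the vehicle wells. The subunits thus lay on opposite sides of 0, neither beyond the spread between wells.

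SIK2 and SIK3, which hold CRTC coactivators in the cytoplasm by phosphorylation, lay close to 0. SIK2 ranged from −0.14 to 0.03 under vehicle and from −0.04 to 0.08 under TGFβ1, a log2 change of 0.04 (SE 0.06, interval −0.10 to 0.17). Its probes had opposite signs, 0.13 (SE 0.08) on ILMN_1668714 and −0.05 (SE 0.08) on ILMN_3239795. SIK3, with 1 probe, ranged from −0.12 to 0.15 and from −0.14 to 0.11, a log2 change of −0.04 (SE 0.08, interval −0.20 to 0.13). Neither kinase separated the treated from the vehicle wells.

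The 4 MARK kinases, which phosphorylate microtubule-associated proteins such as tau and loosen them from microtubules, were all slightly below 0 and all overlapped between groups. MARK1 had a log2 change of −0.06 (SE 0.06, interval −0.18 to 0.07). Its vehicle wells were tight, at 0.00 to 0.05, and its TGFβ1 wells ran from −0.12 to 0.05. MARK2, as the mean of 3 probes, changed by −0.02 (SE 0.06, interval −0.14 to 0.11). Its probes stood at −0.06, −0.04 and 0.05. MARK3 changed by −0.03 (SE 0.07, interval −0.17 to 0.12). MARK4 changed by −0.03 (SE 0.09, interval −0.23 to 0.16) and had the widest TGFβ1 wells, from −0.20 to 0.22. No MARK gene stood apart from the other 3.

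**Figure D2:**
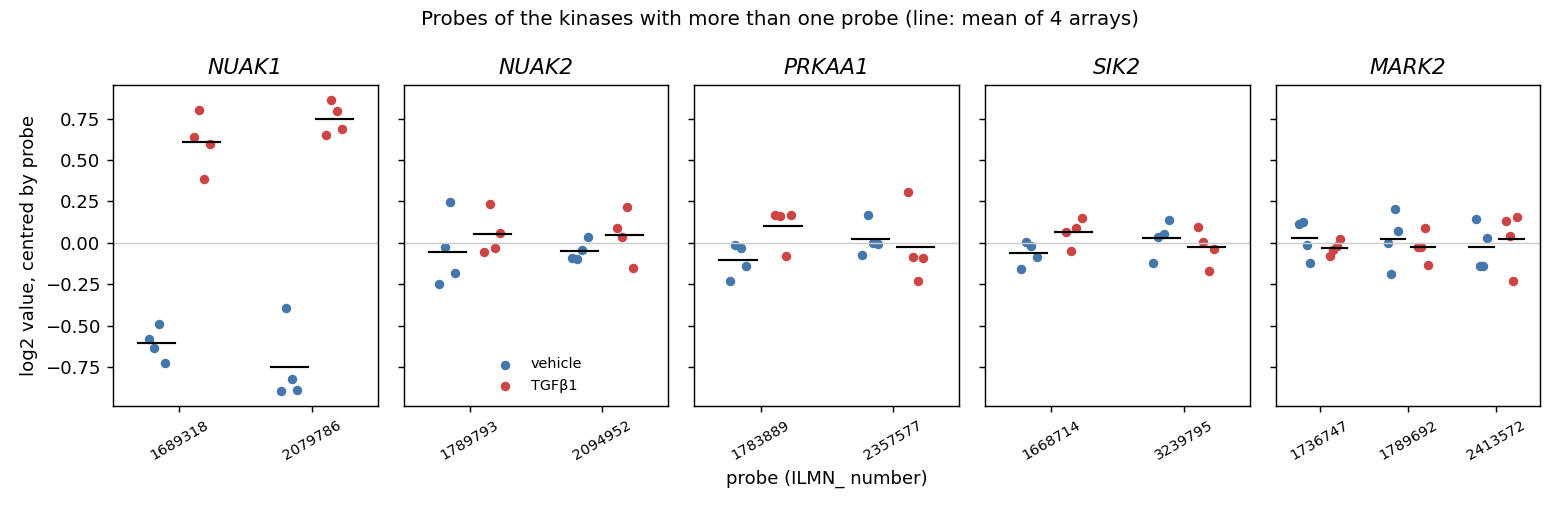
The centred log2 value (vertical axis) of each probe (horizontal axis) of the 5 kinases with more than 1 probe, for 4 vehicle wells (blue) and 4 TGFβ1 wells (red), with the mean of each group as a line. Both NUAK1 probes separate the groups, and the 9 probes of the other 4 kinases do not.

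Taken over the 10 kinases, 1 passed an adjusted p under 0.05 in limma and the other 9 did not, where 5.7% of the 20045 genes tested passed in either direction, 3.03% higher and 2.67% lower. SAM, the permutation method of the study, also called NUAK1 alone, beside 3.79% of all genes. The one that passed was NUAK1, the gene for which the list was made, so nothing is read from this count. On single probes 2 of 16 passed, both of NUAK1, beside 3.33% of all probes, and SAM called the same 2 beside 2.09%. The groups did not overlap in 1 of the 10 kinases, against 10.3% of all genes. The median log2 change was −0.02 over the 10 kinases and −0.0013 over all genes. For the 9 kinases other than NUAK1, of which 3 were above 0 and 6 below, every 95% interval included 0, and none reached below −0.25 or above 0.26. A change of more than 0.26 on the log2 scale in either direction therefore lies outside the interval of each of these 9. Some intervals were narrower, such as −0.14 to 0.11 for MARK2, and changes inside the interval of a kinase cannot be told from none. For PRKAA1 the interval is that of the mean of 2 probes that differed, at 0.21 and −0.05. Whether these 9 transcripts were above the background of the array cannot be read from centred values, and a transcript below background would also lie near 0.

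**Figure D3:**
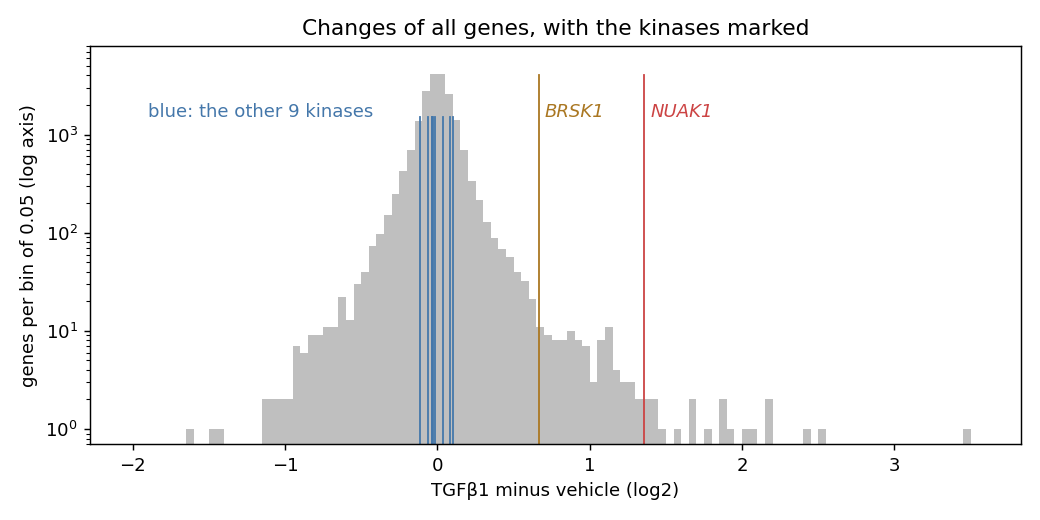
The number of genes (vertical axis, log scale) by log2 change, TGFβ1 minus vehicle (horizontal axis, bins of 0.05), with the 10 kinases and BRSK1 as lines. NUAK1 at 1.36 lies in the upper tail, BRSK1 at 0.66 nearer the centre, and the other 9 kinases between −0.11 and 0.10.

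The genes whose values over the 8 arrays were most like those of NUAK1 were IL1B, a proinflammatory cytokine, at a Pearson r of 0.997, the racemase AMACR at 0.996, the matrix protein TGFBI at 0.994, the Notch ligand JAG1 at 0.993 and the RNA-binding protein RBM47 at 0.993. Their log2 changes were 1.95, 1.13, 2.40, 1.80 and 1.13. FJX1 at −0.995 and QDPR, an enzyme that regenerates tetrahydrobiopterin, at −0.993 ran most opposite to NUAK1, with changes of −0.67 and −0.80. The 8 arrays share the same pair of groups, so r here mainly orders genes by how cleanly the groups separate. Among the other 9 kinases r with NUAK1 ran from −0.63 for PRKAA2 to 0.56 for NUAK2. BRSK1 had an r of 0.93.

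Beyond the 10 kinases, 7 further AMPK-related and SNF1-like kinases were measured. BRSK1 was the only 1 of them that passed at an adjusted p under 0.05 in limma, where 5.7% of all genes passed. BRSK1 is an LKB1-dependent kinase known from neuronal polarity. Its single probe stood at −0.59, −0.22, −0.34 and −0.18 under vehicle and at 0.18, 0.37, 0.33 and 0.45 under TGFβ1. The groups were separate, and BRSK1 rose by 0.66 (SE 0.09, adjusted p = 0.00041 in limma), which is 1.59-fold. Its paralogue BRSK2 was at −0.05 (SE 0.07, interval −0.21 to 0.11). SNRK, a SNF1-related kinase with 2 probes, was at −0.23 (SE 0.06, adjusted p = 0.051) and MELK, a kinase of dividing cells, at −0.24 (SE 0.07, adjusted p = 0.095). SNRK passed with array weights and without TGFβ1 replicate 3 (adjusted p = 0.042 each) and MELK without TGFβ1 replicate 4 (adjusted p = 0.029). With all wells weighted equally both missed the threshold although their intervals, which are not adjusted, lay below 0. SIK1 was at 0.13 (SE 0.06, adjusted p = 0.32), HUNK at 0.11 and NIM1K at −0.13. The groups of SIK1 and SNRK did not overlap, as in 10.3% of all genes. The median over the 7 was −0.05. The first 30 of the 50 bases of the BRSK1 probe are given here, since it alone carried this result.
ILMN_2185845: tgctctccggaaggaattctggtttcgcgt

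**Figure D4:**
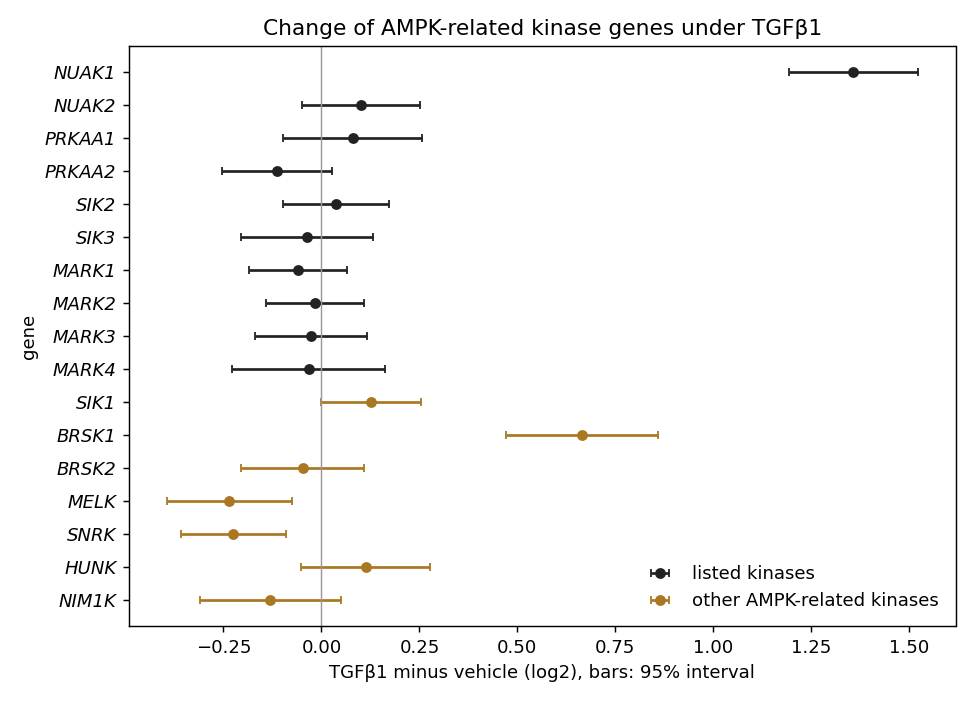
The log2 change, TGFβ1 minus vehicle (horizontal axis), with its 95% interval for the 10 kinases (black) and 7 further AMPK-related and SNF1-like kinases (brown), 4 wells a group. NUAK1 at 1.36 and BRSK1 at 0.66 stand away from 0, and the intervals of the other 9 black points include 0.

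Of 9 genes for the LKB1 complex and other kinases upstream of this family, 1 passed in limma, with a lower value, beside 5.7% of all genes, and the median was −0.04. STK11, which encodes LKB1, was −0.13, −0.06, 0.27 and 0.19 under vehicle and −0.16, −0.04, −0.12 and 0.04 under TGFβ1. The groups overlapped, at a log2 change of −0.14 (SE 0.09, adjusted p = 0.56, interval −0.33 to 0.06). STRADB, a pseudokinase that binds and activates LKB1, fell by 0.33 (SE 0.08, adjusted p = 0.023). It ranged from 0.05 to 0.39 under vehicle and from −0.29 to −0.08 under TGFβ1. That call ended when 1 of 3 wells was left out, at an adjusted p of 0.058 without vehicle replicate 4, 0.058 without TGFβ1 replicate 1 and 0.076 without TGFβ1 replicate 3. Its paralogue STRADA was at −0.03. None of the 5 β and γ subunits of AMPK passed, with PRKAB1, the β1 subunit, lowest at −0.19 (SE 0.08, adjusted p = 0.26). PRKAB1 alone of these 5 had an unadjusted p under 0.05, and without TGFβ1 replicate 1 it passed at −0.27 (adjusted p = 0.043 in limma). No share of all genes at an unadjusted p is given here, so nothing is read from that count. SAM called 0 of the 5.

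The genes for targets of these kinases were counted by list, each beside the 5.7% of all genes. Of 13 genes of myosin phosphatase and myosin light chain, the pathway of the best known NUAK substrate, 1 was higher and 0 were lower. It was MYL6, the non-muscle essential light chain, which rose by 0.23 (SE 0.06, adjusted p = 0.030) and is not the light chain that the phosphatase acts on. MYL6 passed in only 1 of the 8 fits that leave out a well, with adjusted p values over all alternatives from 0.028 to 0.15. In this list 4 genes had an unadjusted p under 0.05, and all 4 were higher. No share of all genes at an unadjusted p is given here. Nothing is therefore read from this count or from the unadjusted counts of the lists below. Beside MYL6 the 4 were the regulatory light chains MYL12A at 0.22 (SE 0.08, adjusted p = 0.17) and MYL12B at 0.17 (SE 0.07, adjusted p = 0.23), and the phosphatase catalytic subunit PPP1CB at 0.19 (SE 0.07, adjusted p = 0.19). The groups of MYL12A did not overlap, nor did those of ULK1 and KSR1 in the lists below, as in 10.3% of all genes. On its probe with the largest SD, PPP1CB passed at 0.35 (adjusted p = 0.014). That SD was taken over both groups together, so a gap between the groups helps to pick the probe. Nothing is read from this pass. PPP1R12A, which encodes the NUAK substrate MYPT1, was at 0.06 (SE 0.13). Of 17 measured genes for AMPK substrates, 1 was higher and 2 were lower. PPARGC1A, a coactivator of mitochondrial genes, stood at −0.39, −0.60, −0.44 and −0.77 under vehicle and at 0.50, 0.54, 0.65 and 0.50 under TGFβ1, and rose by 1.10 (SE 0.08, adjusted p = 1.5e-06). TBC1D4, a RAB GTPase-activating protein of glucose transporter traffic, fell by 0.51 (SE 0.10, adjusted p = 0.0080). EEF2K, which slows translational elongation, fell by 0.33 (SE 0.08, adjusted p = 0.029). ULK1, a kinase that starts autophagy, was at 0.14 (SE 0.06, adjusted p = 0.29). It passed on its probe with the largest SD, at 0.35 (adjusted p = 0.023), but that probe was picked in the same way. The EEF2K call held in 3 of the 8 fits that leave out a well. It ended without vehicle replicate 1 (adjusted p = 0.057), 2 (0.093) or 4 (0.069) and without TGFβ1 replicate 1 (0.087) or 3 (0.094). None of the 7 SIK effectors, CRTC1 to CRTC3 and class IIa histone deacetylases, passed in limma or SAM, and 0 had an unadjusted p under 0.05. None of the 12 MARK substrates and polarity genes passed either in limma or SAM, where 3 had an unadjusted p under 0.05, KSR1 at 0.19, PRKCI at 0.32 and DLG1 at 0.20. PRKCI passed without TGFβ1 replicate 4, at 0.47 (adjusted p = 0.019), and KSR1 with array weights, at 0.21 (adjusted p = 0.047). Over these 7 lists 6 of 70 genes passed, 3 higher and 3 lower, or 8.57% beside 5.7% of all genes. The lists were written with earlier results of these data known, so no excess is read from this share.

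The DNA just upstream of NUAK1 is shown for comparison with NUAK2, its paralogue that did not pass, and with BRSK1, the other kinase that rose. Each line holds the 250 bases before the RefSeq start on GRCh38.p14, at chr12:106138955-106139204 on the minus strand for NUAK1, chr1:205321746-205321995 on the minus strand for NUAK2 and chr19:55283747-55283996 on the plus strand for BRSK1. Capitals mark matches, on either strand, to CAGAC, the core that SMAD proteins bind, and to TGANTCA, the AP-1 site.
NUAK1: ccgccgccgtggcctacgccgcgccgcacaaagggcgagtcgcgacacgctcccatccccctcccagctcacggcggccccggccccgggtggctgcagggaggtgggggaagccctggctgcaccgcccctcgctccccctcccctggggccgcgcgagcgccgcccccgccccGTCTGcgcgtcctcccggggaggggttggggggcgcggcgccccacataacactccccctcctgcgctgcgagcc
NUAK2: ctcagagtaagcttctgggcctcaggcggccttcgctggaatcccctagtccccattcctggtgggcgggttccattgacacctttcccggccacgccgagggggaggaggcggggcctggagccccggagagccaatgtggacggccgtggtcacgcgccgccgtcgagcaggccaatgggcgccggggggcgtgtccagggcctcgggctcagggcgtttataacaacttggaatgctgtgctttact
BRSK1: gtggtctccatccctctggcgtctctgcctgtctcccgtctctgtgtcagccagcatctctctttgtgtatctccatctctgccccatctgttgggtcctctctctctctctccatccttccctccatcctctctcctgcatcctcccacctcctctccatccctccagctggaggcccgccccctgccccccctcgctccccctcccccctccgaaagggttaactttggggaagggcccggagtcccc

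NUAK1 had 1 match to the SMAD core, beginning 75 bases before the start, and 0 to the AP-1 site. NUAK2 and BRSK1 had 0 of either. The SMAD core is short and occurs in 38.0% of 34943 such RefSeq windows, and the AP-1 site in 6.59%. Of the 9 kinases with a RefSeq window, 6 had a match to the SMAD core, 5 of them kinases that stayed near 0, and PRKAA1 had 2 matches. The NUAK1 window was 79.6% G and C, against a mean of 57.2% over all windows. This was not particular to NUAK1, since the 10 windows of the 9 kinases ran from 59.2% to 83.2%. Among kinases that stayed near 0, PRKAA2 had 83.2%, PRKAA1 80.8% and SIK2 80.0%. These are counts of letters and no measure of binding.

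As a check of the labelled treatment, 4 of 5 measured TGFβ targets were higher in limma at a median of 0.86, among them SMAD7 at 0.54 (SE 0.07, adjusted p = 0.00015) and PMEPA1 at 1.07 (SE 0.06, adjusted p = 6.5e-08). Of 7 melanocyte lineage markers 3 were lower, MITF, SOX10 and TYRP1, and 0 were higher. The 4 not called were MLANA at −0.23, TYR at −0.17, S100B at −0.09 and PMEL at 0.05. At an adjusted p under 0.05 in limma, 3.03% of all genes were higher and 2.67% lower. In this list 5 markers had an unadjusted p under 0.05, all lower. No share of all genes at an unadjusted p is given here, so nothing is read from the unadjusted counts of the marker lists. Leukocyte and fibroblast markers gave 0 calls of 5 each in limma, where 0 leukocyte and 2 fibroblast markers had an unadjusted p under 0.05, and SAM called 0 of both. Of 4 keratinocyte markers 1 was higher, KRT10 at 0.38 (SE 0.07, adjusted p = 0.0048). Presence of these cell types cannot be read from centred values. The part of these markers in the results for the kinases was not tested.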

How the data were processed

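The data are 8 Illumina HT-12 arrays of A2058 cells, 4 per group, grouped by sample title. The authors quantile normalised the raw signals, dropped control probes, took log2 and centred genes and samples, and the log2 values so made were deposited. Each probe averages 0 over the arrays within 1.6e-07, and array medians lie between −0.0050 and −0.0015. The log base is known from the methods. No level, background or detection value is kept, so no filter on dim probes could be applied, and the number of arrays limits the precision.

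Platform annotation gave 1 symbol to 30105 probes, several to 8 and none to 17202. A gene is the mean of its probes. Groups were compared in limma 3.58.1 (R 4.3.3; lmFit, eBayes) over all 20045 genes or 47315 probes, with Benjamini-Hochberg adjustment, called under 0.05. Intervals are 95%, from the moderated fit. The study's SAM was coded anew over 70 labellings with an aim of 10 median false positives. Other alternatives were a further quantile normalisation, a common median, array weights, the replicate number as a block, the probe with the largest SD, a threshold of 0.01, and fits without 1 array. The SD that picked a probe was taken over the arrays of both groups together. Scripts were tested on simulated data. Python 3.11.15 with numpy 2.4.6, scipy 1.17.1, pandas 2.3.3 and matplotlib 3.10.9 made the summaries and plots.

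The members and lists were chosen with earlier results of these data known. Named were all members, up to 3 called genes per direction and list, STK11, and the 5 genes most and 2 least like NUAK1. Genes that missed the threshold were named after their values were seen. Probe sequences came from the study's supplementary probe list, which was called on these arrays, and promoters from RefSeq, where 9 of the 10 kinases matched. A comparison of protein sequences had been planned and was not made.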

Additional observations from a re-analysis of the deposited data

Results flagged for a closer look

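On Dixon's ratio, the gap of the outermost well to its neighbour over the range of the group, 4 of 56 groups of 4 wells had a well far from the other 3. Chance gives about 1 in 20 groups. The groups held both gene means and single probes, and a mean shares values with its probes. They are not independent, so 4 of 56 is not judged against that rate. The second NUAK1 probe, ILMN_2079786, had vehicle replicate 2 at −0.40 and the next well at −0.82 (ratio 0.853), and this well still lay below every TGFβ1 well. PRKAA1 probe ILMN_1783889 had TGFβ1 replicate 3 at −0.08 and the next at 0.16 (ratio 0.983). SIK2 had vehicle replicate 1 at −0.14 and the next at 0.02 (ratio 0.956). MARK3 had TGFβ1 replicate 4 at −0.12 and the next at 0.01 (ratio 0.855).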

How the results depend on the processing

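NUAK1 was the only one of the 10 kinases called under each of the 15 alternatives. Nothing is read from these calls, because NUAK1 had been picked for its rise on these same arrays. Its log2 change ran from 1.31 to 1.41 when 1 well was left out, was 1.24 after a further quantile normalisation and 1.5 on its probe with the larger SD. That SD is over both groups together, so a gap between the groups helps to pick the probe. On that choice of probe SIK2 went from 0.04 to −0.05 and MARK2 from −0.02 to 0.05. Calls over all genes, 1143, were 760 in SAM (463 higher and 297 lower) and 617 at an adjusted p under 0.01 (360 and 257), and 885 to 1170 without 1 well. Calls over all probes, 1576, were 988 in SAM and 1226 to 1647 without 1 well. Fewer calls at the stricter threshold follow from its construction, and the cause of the lower SAM counts was not tested. The 6 calls in the lists of partners became 8 with array weights, 7 on the probe with the largest SD, 4 in SAM, 3 at an adjusted p under 0.01 and 3 to 7 without 1 well, with the 3 reached without vehicle replicate 4. Calls for BRSK1, TBC1D4 and PPARGC1A held under all 15 alternatives, with adjusted p values in limma from 0.00012 to 0.0024, 0.0010 to 0.029 and 1.1e-07 to 1.9e-05. STRADB lost its call in 5, EEF2K in 7 and MYL6 in 10.

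The replicate number as a block gave 1026 calls over all genes, 1 of the 10 kinases, 5 in the partner lists and an NUAK1 change of 1.36, and the MYL6 call ended (adjusted p = 0.064). Over all genes, wells with the same number did not deviate together (r between −0.04 and 0.03). An r over all genes cannot show whether such wells had more in common for part of the genes. A filter on dim probes could not be run on centred values.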
